A study of Mus musculus with 11 samples.

Results

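The 9 genes described here belong to the complement system (C3, C4b, Serping1 and Cd59a) or to the genes that astrocytes raise when they become reactive (Serpina3n, Lcn2, Ccl2, Cxcl10 and Cd44). They were taken by gene symbol from a deposited table of 37991 genes. The set was selected on the values of C3 in the contrasts of the astrocyte medium with the other groups, where C3 was among the most selective genes, so the level of C3 in those cultures is given as a description, with no test. How far the values of the other 8 genes entered that choice is not recorded, and their contrasts with the astrocyte medium are therefore no independent evidence of a direction.

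The study grew neural stem cells from the frontal cortices of E14.5 embryos of C57BL/6J mice and sequenced poly(A) RNA from 11 libraries in 4 groups. The NSC group (3 libraries) was sampled at day 0 in proliferation medium. The Astrocyte group (3 libraries) had spent 4 days in DMEM that held fetal bovine serum (1%) and N-2 (1%), and the Neuron group (3 libraries) 4 days in Neurobasal supplemented with 2% B-27. The Oligodendrocyte group (2 libraries) received the neuron medium with 30 ng/mL of the thyroid hormone T3. The names stand for the medium, not for sorted cells. No culture stayed in proliferation medium until day 4, so the change of medium and the time in culture cannot be told apart in any contrast with NSC. The series text calls the libraries of a group biological replicates without saying whether they came from separate cultures or litters, and p-values measure the spread between these libraries only, which may be technical.

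Complement is a cascade of plasma and tissue proteins that tag surfaces for removal. The classical pathway runs from C1q, C1r and C1s through C4 and C2 to C3, whose cleavage products mark cells and synapses and bind receptors on microglia. Serping1 and Cd59a act as brakes at the start and at the end of the cascade. In brain, astrocytes are a known source of C3 and C4, and C3, Serpina3n and Lcn2 are widely used markers of astrocytes that react to inflammation or injury.

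Values are CPM, reads scaled to a common library total. Estimated depth was 49.3 to 66.2 M (mega) reads, so 1 read was worth 0.01511 to 0.02029 CPM. Tests were made with limma on log2(CPM + 1) over the 13342 genes that reached 1 CPM in 2 or more libraries, and a gene was called at a Benjamini-Hochberg adjusted p under 0.05. Of the 9 genes, 8 passed this filter. Cd44 did so in all 11 libraries, C3, C4b, Serping1 and Serpina3n through the 8 day 4 libraries, Cd59a through 5 (Astrocyte and Oligodendrocyte), Ccl2 through the 3 NSC libraries and Cxcl10 through 2 of the NSC libraries. A gene that passed only through the groups where it is high had to differ from the others, so counts over the members that passed support nothing. For such contrasts of members the SE and adjusted p printed below come from a limma fit of 23440 genes without the filter, which admits a gene whatever its group. No call of a tested member was lost in that fit. Lcn2 reached 1 CPM in 1 library and was tested only in the fit without the filter. Genes of the lists further below are given from the fit with the filter, so the same limit holds for their contrasts and counts.

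Markers of the labelled cells were checked first. The summed CPM of 9 astrocyte genes (Aqp4, Aldh1l1, Slc1a2, Slc1a3, S100b, Gja1, Aldoc, Glul and Fgfr3) was 1876 to 1975 in NSC, 8355 to 8461 in Astrocyte, 9134 to 9851 in Neuron and 5192 to 5930 in Oligodendrocyte, with single genes in different orders. Against NSC, 7 of the 9 were called higher in Astrocyte, 8 in Neuron and 7 in Oligodendrocyte. Of all tested genes, 48.0%, 43.5% and 48.1% were called higher in these contrasts. Aqp4 (1479 CPM in Astrocyte, 763.3 in Neuron) and Gja1 (2126 and 1061) were higher in Astrocyte than in Neuron. In that contrast 6 of the 9 were called lower, beside 22.0% of all tested genes. Fgfr3 was highest in Oligodendrocyte at 148.4 CPM. Markers of the other labels followed the group names only in part. Of the oligodendrocyte genes, Mbp, a myelin protein, had means of 1.71 CPM in NSC, 38.11 in Astrocyte, 495.2 in Neuron and 593.8 in Oligodendrocyte. Mag (38.26 CPM in Neuron, 31.89 in Oligodendrocyte) and Cnp (859.3 and 720.7) were called lower in Oligodendrocyte than in Neuron, while Mog (0.5267 and 9.595) was called higher. The 5 matched neuron genes were Dcx, Tubb3, Rbfox3, Snap25 and Syt1. Their sum was 13.1 to 14.9 CPM in NSC, 151 to 206 in Astrocyte, 143 to 225 in Neuron and 136 to 145 in Oligodendrocyte. By this sum Neuron overlapped with both Astrocyte and Oligodendrocyte, but single genes differed. Rbfox3 (2.34 CPM in Neuron, 1.087 in Astrocyte, 1.325 in Oligodendrocyte) and Syt1 (11.07, 3.51 and 3.98) were called higher in Neuron than in both. Dcx was called higher in Neuron than in Oligodendrocyte only. Tubb3 was called lower in Neuron than in both with the deposited CPM, and Snap25 was called in neither contrast. Of 9 microglia markers, 7 (among them Aif1, Cx3cr1, Tmem119, Trem2 and Tyrobp) stayed at or under 0.23 CPM in all libraries. The summed microglia list ranged from 1.45 to 3.16 CPM over all libraries, most of it Cd68 and P2ry12. Of 6 mesenchymal markers only Pdgfrb reached 1 CPM, with means of 0.2633 CPM in NSC, 41.92 in Astrocyte, 37.54 in Neuron and 8.82 in Oligodendrocyte. The summed list ran from 0.99 to 1.12 CPM in NSC and from 34.9 to 42.5 CPM in Astrocyte and Neuron. Of 5 endothelial markers only Kdr did, with 1.267, 5.987, 1.28 and 2.65 CPM in the same order of groups, which is the order of C3 at day 4. The part of these markers in the members' differences was not tested. In bulk RNA, fewer cells of a type and less RNA per cell cannot be told apart.

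Start-site sequences are shown for 4 members, because C3, Cd59a and Serpina3n all had their highest level in the astrocyte medium and Cxcl10, a textbook target of inflammatory signalling, did not. Of the 9 genes, 6 had an entry in the RefSeq promoter table (build GRCm38.p6): C3, Cd59a, Serpina3n, Cxcl10, Lcn2 and Cd44. The 250 bases before the annotated start are printed on the strand of the gene. Capitals mark matches on either strand to 4 motifs: kappaB (GGNNNTTCC), STAT (TTCNNNGAA), the interferon-type element ISRE (TTCNNTTTC) and CEBP (TTGCNNAA).
C3, chr17:57228137-57228386, minus strand: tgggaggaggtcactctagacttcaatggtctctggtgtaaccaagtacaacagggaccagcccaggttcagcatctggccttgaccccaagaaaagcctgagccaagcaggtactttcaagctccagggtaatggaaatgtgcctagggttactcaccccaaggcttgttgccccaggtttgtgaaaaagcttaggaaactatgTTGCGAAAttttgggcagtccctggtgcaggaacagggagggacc
Cd59a, chr2:104095551-104095800, plus strand: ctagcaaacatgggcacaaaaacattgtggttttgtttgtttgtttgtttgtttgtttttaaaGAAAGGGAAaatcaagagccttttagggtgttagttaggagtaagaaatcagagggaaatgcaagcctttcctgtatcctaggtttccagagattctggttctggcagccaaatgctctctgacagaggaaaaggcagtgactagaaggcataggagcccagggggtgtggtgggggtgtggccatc
Serpina3n, chr12:104406458-104406707, plus strand: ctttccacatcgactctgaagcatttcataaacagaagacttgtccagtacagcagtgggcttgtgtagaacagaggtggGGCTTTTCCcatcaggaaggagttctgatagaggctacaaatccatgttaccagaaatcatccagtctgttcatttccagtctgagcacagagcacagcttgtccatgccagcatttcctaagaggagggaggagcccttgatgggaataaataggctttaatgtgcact
Cxcl10, chr5:92348890-92349139, minus strand: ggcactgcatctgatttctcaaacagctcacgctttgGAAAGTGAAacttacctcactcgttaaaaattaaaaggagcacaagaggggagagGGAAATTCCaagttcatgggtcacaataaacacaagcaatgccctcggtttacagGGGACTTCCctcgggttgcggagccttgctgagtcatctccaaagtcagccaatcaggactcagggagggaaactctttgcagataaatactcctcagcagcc

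C3 held 1 CEBP match, 45 to 38 bases before the start, Cd59a 1 ISRE match on the opposite strand, and Serpina3n 1 kappaB match. Cxcl10 held 2 kappaB matches and 1 ISRE match on the opposite strand, the most of the 6 genes. Lcn2 held 1 CEBP match and Cd44 none of the 4 motifs. Among 32851 promoters of the same length, 15.7% held a kappaB match, 7.0% a STAT match, 7.1% an ISRE match and 9.6% a CEBP match. These 3 genes with the same highest group had no motif in common. A match describes letters in this window and not binding of a factor, and no match says nothing about a factor elsewhere.

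C3 (ENSMUSG00000024164, mm9 chromosome 17, 57343393 to 57367559), the central protein of the cascade, was almost silent at day 0 and differed widely between the day 4 media. It stood at 0.02, 0.02 and 0.13 CPM in the NSC libraries, which is about 10 reads over the group, and at 66.80, 88.97 and 72.08 CPM in Astrocyte. Neuron libraries had 1.26, 1.50 and 1.19 CPM, and the Oligodendrocyte pair 8.86 and 8.35 CPM. None of the 4 groups overlapped. The order was Astrocyte (75.95 ± 11.6 CPM, SD, n = 3), Oligodendrocyte (8.605 ± 0.361, n = 2), Neuron (1.317 ± 0.163, n = 3) and NSC (0.05667 ± 0.0635, n = 3).

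As a description of the choice, the smallest log2 difference of Astrocyte over the other groups was 2.99 for C3, rank 1 of 13342 genes. Serpina3n ranked 19 (1.92), Serping1 36 (1.64) and Cd59a 200 (0.97). The contrasts of C3 that do not involve Astrocyte were tested. C3 was 6.54-fold higher in Oligodendrocyte than in Neuron, 2.05 (SE 0.118) on the log2(CPM + 1) scale, at an adjusted p of 7.47e-09 (limma). Against NSC, in the fit without the filter, the difference was 3.19 (SE 0.129, adjusted p = 1.21e-08) in Oligodendrocyte and 1.13 (SE 0.116, adjusted p = 1.09e-05) in Neuron. C3 was thus higher in Oligodendrocyte than in Neuron and NSC, and higher in Neuron than in NSC. Oligodendrocyte and Neuron media differ only by T3 per the protocol.

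C4b (ENSMUSG00000073418, mm9 chromosome 17, 34865325 to 34880827), the C4 protein that leads to C3 cleavage, had a different order. Its CPM was 0.57, 0.56 and 0.57 in NSC, 111.50, 95.10 and 114.06 in Astrocyte, 256.67, 243.53 and 273.21 in Neuron, and 11.85 and 10.95 in Oligodendrocyte. The groups did not overlap, and the neuron medium, where C3 was lowest of the day 4 groups, gave the highest C4b. The mean was 257.8 ± 14.9 CPM (SD, n = 3) in Neuron against 106.9 ± 10.3 (n = 3) in Astrocyte, 2.41-fold higher, and limma put the log2 difference of Astrocyte from Neuron at -1.27 (SE 0.077, adjusted p = 1.5e-08). In Oligodendrocyte, at 11.4 ± 0.636 CPM (n = 2), it was 22.6-fold lower than in Neuron (log2 difference -4.38, SE 0.086, adjusted p = 1.1e-12) and 9.38-fold lower than in Astrocyte (-3.12, SE 0.086, adjusted p = 4.27e-11). All 3 day 4 groups were above NSC, by 7.37 in Neuron, 6.10 in Astrocyte and 2.98 in Oligodendrocyte on the log2 scale, with adjusted p from 6.31e-12 to 9.54e-10 in the fit without the filter.

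**Figure D1:**
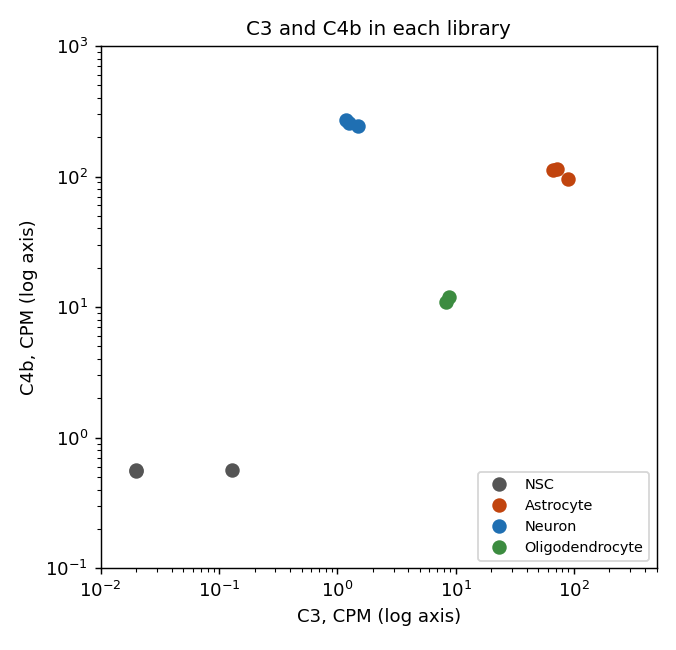
C3 against C4b in each of the 11 libraries, in CPM on log axes, coloured by group. The 4 groups lie apart from each other: Neuron has C4b of 243.53 to 273.21 CPM with C3 of 1.19 to 1.50 CPM, Astrocyte is high on both axes, and Oligodendrocyte has 8.35 and 8.86 CPM of C3 with 10.95 and 11.85 CPM of C4b.

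Per kilobase of exon, the C4b level divided by the C3 level was 1.51, 0.965 and 1.43 in Astrocyte and 1.21 and 1.18 in Oligodendrocyte, so the 2 complement genes were near parity there at very different levels. The same ratio was 184, 147 and 207 in Neuron. It was 25.7, 25.3 and 3.96 in NSC, where it rests on about 10 reads of C3. The plot of C3 against C4b shows the same split. Beside these values, the astrocyte marker sums were highest in Neuron and lowest of the day 4 groups in Oligodendrocyte, and the oligodendrocyte genes Mbp, Mag and Cnp had higher means in Neuron and Oligodendrocyte than in Astrocyte, while Mog was lowest of the day 4 groups in Neuron. Their part in the C4b differences was not tested. The near-identical gene C4a, 95.9% identical to C4b over 5378 aligned transcript bases (GENCODE vM21), was listed at 0.37 to 1.36 CPM. The assignment of reads shared by C4a and C4b was not given in the sources used here, so the split between them is uncertain.

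Serping1 (ENSMUSG00000023224, mm9 chromosome 2, 84605544 to 84615601) encodes the C1 inhibitor, which blocks C1r and C1s. It was measured at 0.08, 0.26 and 0.22 CPM in NSC and at 8.42, 9.01 and 11.34 CPM in Astrocyte. Neuron libraries had 1.62, 2.25 and 1.63 CPM, and Oligodendrocyte 2.26 and 2.49 CPM. Astrocyte stood above all other libraries, 5.23-fold above Neuron (log2 difference 1.90, SE 0.12, adjusted p = 2.11e-08, limma) and 4.04-fold above Oligodendrocyte (log2 difference of Oligodendrocyte -1.64, SE 0.134, adjusted p = 3.69e-07). Oligodendrocyte and Neuron were neighbours whose ranges only just parted, 2.25 against 2.26 CPM. Their log2 difference was 0.26 (95% interval -0.03 to 0.55, adjusted p = 0.103) and did not pass, although it was 0.36 at an adjusted p of 0.0193 without Neuron replicate 2.

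Cd59a (ENSMUSG00000032679, mm9 chromosome 2, 103935958 to 103955511) encodes the membrane inhibitor of the terminal attack complex. It was 0.03 CPM in each NSC library, 3.97, 4.32 and 5.23 in Astrocyte, 0.49, 0.49 and 0.44 in Neuron, and 1.76 and 1.85 in Oligodendrocyte. The groups did not overlap and followed the same order as C3. Cd59a did not reach 1 CPM in any Neuron or NSC library, so the fit without the filter is given for Neuron. There Oligodendrocyte was above Neuron by 0.93 (SE 0.089, adjusted p = 1.72e-05, limma) and Astrocyte above Neuron by 1.90 (SE 0.079, adjusted p = 1.29e-07). Oligodendrocyte was below Astrocyte by 2.50-fold (log2 difference -0.97, SE 0.102, adjusted p = 4.03e-06). Its paralog Cd59b, 83.2% identical over 739 aligned transcript bases, was listed at 0.17 to 0.76 CPM, and reads that fit both genes are uncertain.

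**Figure D2:**
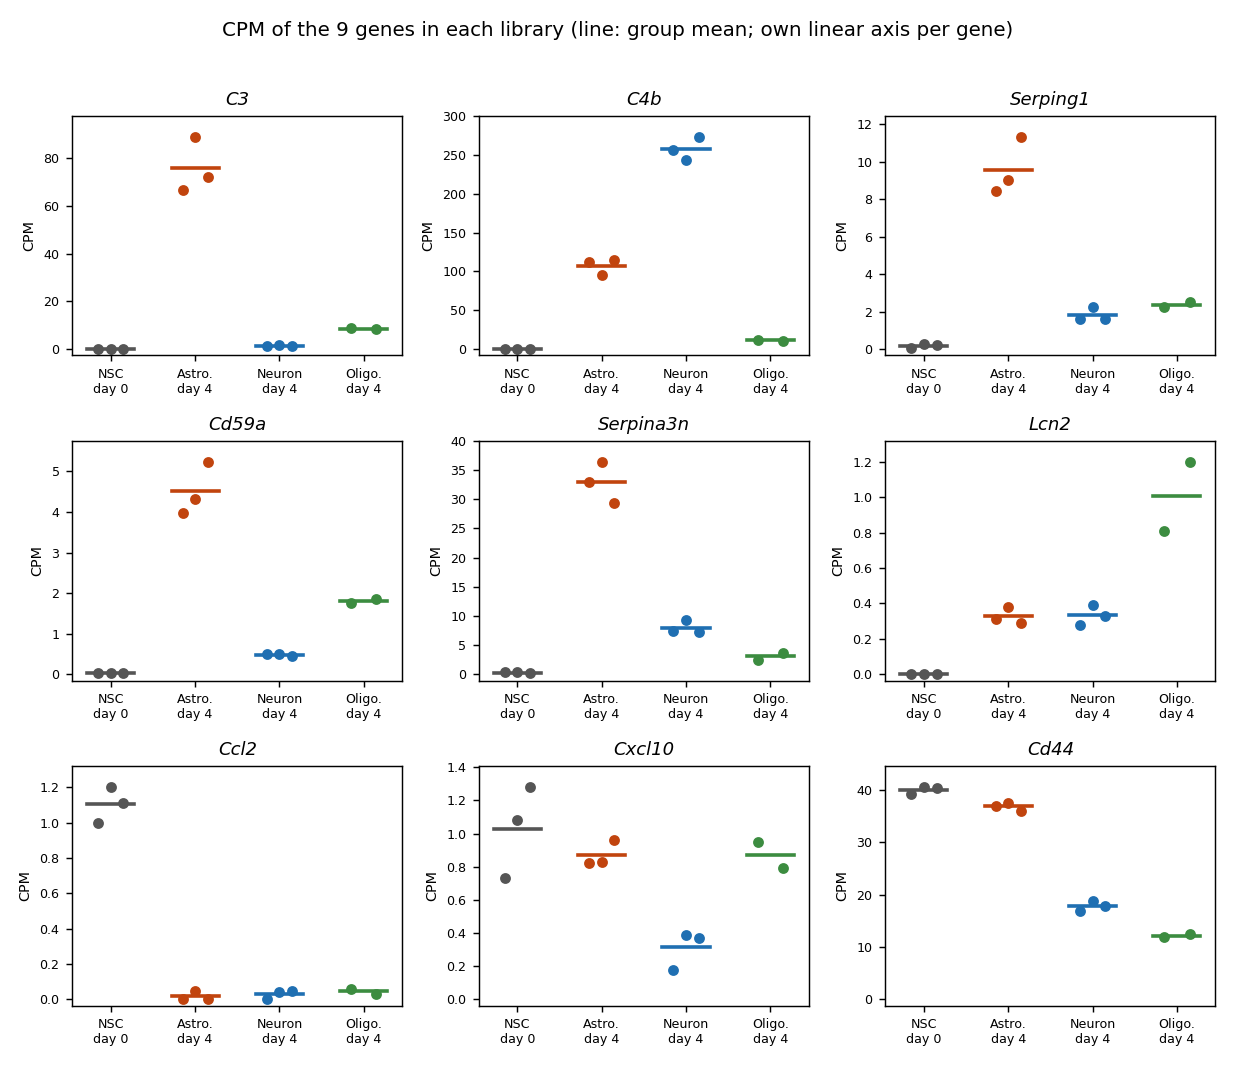
CPM of the 9 genes in each library, by group, with a line at the group mean and a linear axis of its own for each gene. C3, Serping1, Cd59a and Serpina3n peak in Astrocyte, C4b in Neuron, Lcn2 in Oligodendrocyte and Ccl2 in NSC.

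Serpina3n (ENSMUSG00000021091, mm9 chromosome 12, 105644939 to 105652539) encodes a secreted serine protease inhibitor that is among the most used markers of reactive astrocytes. Its CPM was 0.32, 0.30 and 0.22 in NSC, 32.96, 36.40 and 29.39 in Astrocyte, 7.43, 9.37 and 7.18 in Neuron, and 2.45 and 3.64 in Oligodendrocyte. Here Oligodendrocyte was the lowest day 4 group, without overlap. Serpina3n was 4.12-fold higher in Astrocyte than in Neuron (log2 difference 1.92, SE 0.125, adjusted p = 2.79e-08, limma) and 10.8-fold higher than in Oligodendrocyte (log2 difference of Oligodendrocyte -3.08, SE 0.14, adjusted p = 1.9e-09). Against Neuron, Oligodendrocyte was 2.63-fold lower (-1.16, SE 0.14, adjusted p = 7.71e-06). In this contrast, with T3 as the only labelled difference in medium, Serpina3n, C4b and Cd44 were lower in Oligodendrocyte. C3, Cd59a, Cxcl10 and Lcn2 (the last in the fit without the filter) were higher, and Serping1 and Ccl2 did not pass. The 13 other Serpina3 genes in the table were at or under 0.02 CPM in every library.

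Lcn2 (ENSMUSG00000026822, mm9 chromosome 2, 32240153 to 32243317) encodes lipocalin 2, an iron-carrier binding protein secreted in inflammation. It was listed at 0 in the 3 NSC libraries, where 3 reads, the limit that a count of 0 allows, would be 0.0505 to 0.0523 CPM (counting error only). Astrocyte libraries had 0.31, 0.38 and 0.29 CPM, Neuron 0.28, 0.39 and 0.33, and Oligodendrocyte 0.81 and 1.20. The Oligodendrocyte pair lay above all other libraries, and Astrocyte and Neuron overlapped. In a limma fit of 23440 genes without the filter, Oligodendrocyte was higher than Neuron by 0.58 (SE 0.071, adjusted p = 9.08e-05) and than Astrocyte by 0.59 (SE 0.071, adjusted p = 0.000141) on the log2(CPM + 1) scale. Astrocyte and Neuron differed by -0.01 (SE 0.063, adjusted p = 1) in that fit. The level remained low, about 128 reads in the Oligodendrocyte pair.

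Ccl2 and Cxcl10, chemokines that draw monocytes and T cells, were low everywhere and did not follow C3. Ccl2 (ENSMUSG00000035385, mm9 chromosome 11, 81849073 to 81850955) was 1.00, 1.20 and 1.11 CPM in NSC, 0, 0.05 and 0 in Astrocyte, 0, 0.04 and 0.05 in Neuron, and 0.06 and 0.03 in Oligodendrocyte. All NSC libraries lay above all day 4 libraries, and the day 4 groups overlapped. Ccl2 passed the filter only through NSC, so its contrasts with NSC are given from the fit without it. The log2 difference from NSC was -1.05 in Astrocyte (SE 0.038, adjusted p = 3.95e-09, limma), -1.03 in Neuron (SE 0.038, adjusted p = 4.89e-09) and -1.01 in Oligodendrocyte (SE 0.043, adjusted p = 1.6e-08). No pair of day 4 groups was called: their differences lay between -0.02 and 0.04, and their 95% intervals lay within -0.19 to 0.23. At day 4 Ccl2 rested on 3 to 6 reads per group. Ccl7, its neighbouring chemokine gene, was listed at 0.24 to 0.27 CPM in NSC and at or under 0.03 CPM at day 4.

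Cxcl10 (ENSMUSG00000034855, mm9 chromosome 5, 92775664 to 92777915), an interferon-induced chemokine, had 0.73, 1.08 and 1.28 CPM in NSC, 0.82, 0.83 and 0.96 in Astrocyte, 0.18, 0.39 and 0.37 in Neuron, and 0.95 and 0.79 in Oligodendrocyte. Only Neuron stood apart, below all other libraries, while the other 3 groups overlapped. Neuron differed from NSC by -0.62 (SE 0.101, adjusted p = 0.000366, limma without the filter), and Astrocyte was above Neuron by 0.51 (SE 0.11, adjusted p = 0.00117) and Oligodendrocyte above Neuron by 0.51 (SE 0.123, adjusted p = 0.00236). The remaining contrasts did not pass, with 95% intervals of -0.35 to 0.13 for Astrocyte from NSC, -0.38 to 0.16 for Oligodendrocyte from NSC and -0.27 to 0.27 for Oligodendrocyte from Astrocyte. Quantile normalization changed the first 2 of these to calls, at -0.77 (adjusted p = 2.01e-05) and -0.74 (adjusted p = 8.69e-05).

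Cd44 (ENSMUSG00000005087, mm9 chromosome 2, 102651298 to 102741822), the cell-surface receptor for hyaluronan, was the one member already well above 1 CPM at day 0. It measured 39.14, 40.49 and 40.27 CPM in NSC, 36.97, 37.44 and 36.04 in Astrocyte, 16.80, 18.85 and 17.84 in Neuron, and 11.87 and 12.45 in Oligodendrocyte. The groups did not overlap. Astrocyte and NSC, at 36.82 ± 0.712 and 39.97 ± 0.724 CPM (SD, n = 3 each), were neighbours whose log2 difference of -0.12 (95% interval -0.25 to 0.02, adjusted p = 0.0983, limma) did not pass. With median-of-ratios scaling it was -0.29 (adjusted p = 0.00109), so this call depends on the scaling. Neuron was 2.24-fold below NSC (-1.12, SE 0.062, adjusted p = 8.61e-10) and Oligodendrocyte 3.29-fold below NSC (-1.64, SE 0.069, adjusted p = 6.55e-11). Oligodendrocyte was 1.47-fold below Neuron (-0.52, SE 0.069, adjusted p = 2.1e-05) and 3.03-fold below Astrocyte (-1.52, SE 0.069, adjusted p = 1.9e-09).

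Per kilobase of exon, the scale on which genes can be set side by side, Cd44 led the members in NSC at 5.90 CPM per kb, followed by Ccl2 at 0.97. C4b led in Neuron at 45.3 CPM per kb, followed by Serpina3n at 3.87. In Astrocyte C4b (18.8), Serpina3n (15.9) and C3 (14.8) were close together, and Cd44 (5.43), Serping1 (4.12) and Cd59a (2.49) followed. In Oligodendrocyte the top 4 were C4b (2.00), Cd44 (1.79), C3 (1.67) and Serpina3n (1.48).

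**Figure D3:**
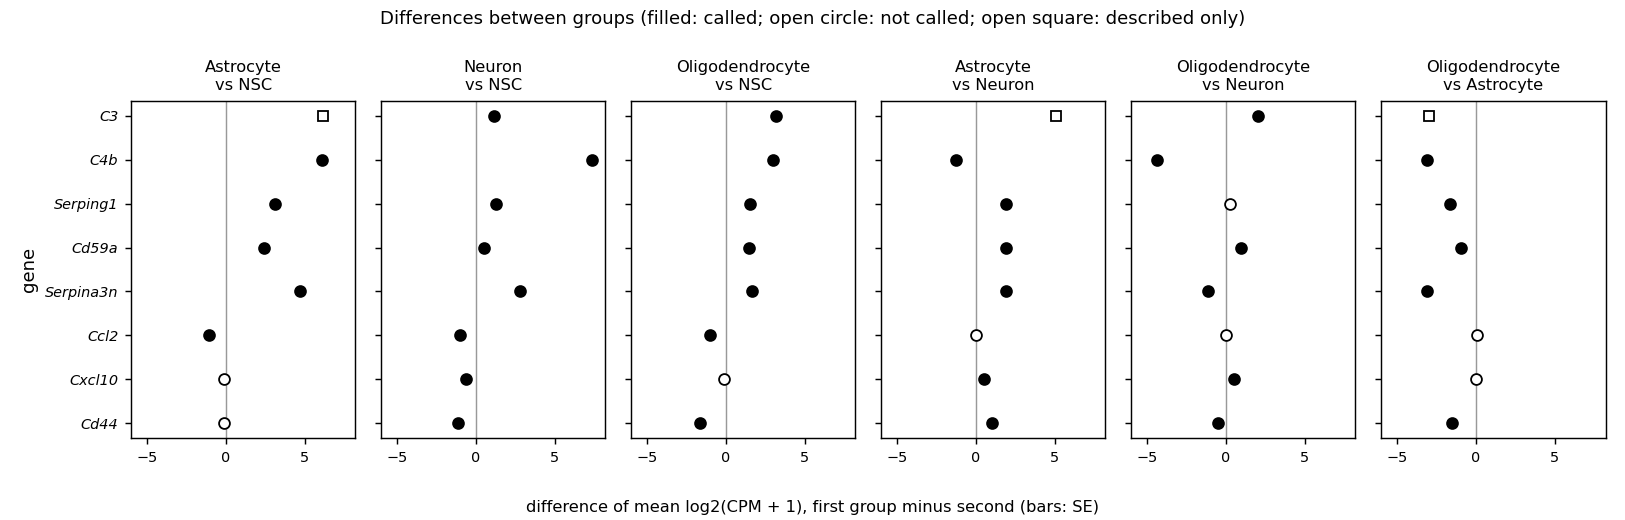
Differences of mean log2(CPM + 1) with SE for the 8 tested genes in the 6 pairs of groups, first group minus second. Filled circles passed the test, open circles did not, and open squares mark C3 where Astrocyte is involved, shown without a test; in Oligodendrocyte against Neuron, C3 lies at 2.05 and C4b at -4.38.

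Most of the tested genes differed between any pair of groups, and the members have to be read against that. Shares and medians of all genes, here and below, are over the 13342 tested genes. Between Neuron and NSC, 8 of 8 tested members were called, 5 higher and 3 lower, where 83.1% of all genes were called, 43.5% higher and 39.6% lower. Oligodendrocyte against NSC called 7 of 8 members, 5 higher and 2 lower, beside 80.2% of all genes (48.1% higher, 32.2% lower). Oligodendrocyte against Neuron called 6 of 8, 3 in each direction, beside 67.5% (43.9% higher, 23.6% lower). With so few genes these shares are near the background, and nothing is read from them. The members' median signed log2 difference was 0.82, 1.48 and 0.14 in these 3 contrasts, against 0.06, 0.19 and 0.15 over all genes. Most members passed the filter only through groups where they are high, which favoured differences from NSC. Nothing is therefore read from the medians either.

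In the contrasts with Astrocyte, C3 is left out and nothing is read from the counts or medians. Astrocyte against NSC called 5 of the other 7 (4 higher, 1 lower; all genes 83.6%, 48.0% higher and 35.6% lower), with a median of 2.41 against 0.15 over all genes. Astrocyte against Neuron called 6 of 7 (5 higher, 1 lower; all genes 62.2%, 40.3% higher and 22.0% lower), with a median of 1.01 against 0.10. Oligodendrocyte against Astrocyte called 5 of 7, all lower (all genes 52.2%, 28.7% higher and 23.5% lower), with a median of -1.52 against 0.04. The split of calls over all genes depends on the scaling. Of all calls, 65.1% were higher in Oligodendrocyte against Neuron with the deposited CPM, 52.5% with median-of-ratios scaling and 48.0% with quantile normalization. The same shares were 64.7%, 52.8% and 48.5% for Astrocyte against Neuron, and 59.9%, 49.9% and 47.7% for Oligodendrocyte against NSC. Either rescaling brought the median of all genes to between -0.04 and 0.03 in every contrast, from 0.04 to 0.19 as deposited, and no called member changed sign under it. Contrasts that share a group share its libraries and are not independent of each other.

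The gene lists that follow are to be read against the shares of all genes called. Against NSC these were 48.0% higher and 35.6% lower in Astrocyte, 43.5% and 39.6% in Neuron, and 48.1% and 32.2% in Oligodendrocyte. They were 40.3% and 22.0% in Astrocyte against Neuron, 43.9% and 23.6% in Oligodendrocyte against Neuron, and 28.7% and 23.5% in Oligodendrocyte against Astrocyte. Nothing is read from a list's count alone.

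The rest of the complement cascade was mostly at or near 0. The 3 chains of C1q (C1qa, C1qb, C1qc) did not exceed 0.03 CPM in any library, Cfb did not exceed 0.02, and Cfd, C9, Mbl1, Fcna and Fcnb were listed at 0 throughout. Of 14 classical and lectin pathway genes 3 were tested, C1s, C1ra and Masp1. The proteases C1s (3.21 CPM) and C1ra (2.04 CPM) had their highest means in Astrocyte. C1ra was above Neuron there by 0.89 (SE 0.136, adjusted p = 7.79e-05, limma), and C1s was lower in Oligodendrocyte than in Astrocyte by a log2 difference of -0.81 (SE 0.124, adjusted p = 0.000111). Masp1, a lectin pathway protease, went the other way from NSC, from 23.6 CPM to 6.043 in Astrocyte (-1.81, SE 0.095, adjusted p = 4.88e-10), 9.953 in Neuron and 5.415 in Oligodendrocyte. By list, 2 of the 3 tested genes were higher and 1 lower in each day 4 group against NSC and in Astrocyte against Neuron. Oligodendrocyte had 1 lower than Neuron and 2 lower than Astrocyte, and none higher. With either rescaling 2 were lower in Oligodendrocyte than in Neuron. C1ra lost its call in Neuron against NSC with quantile normalization.

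Of 10 alternative and terminal pathway genes 3 were tested, Hc (complement C5), Cfp (properdin) and C8g. All 3 were called higher in Astrocyte than in NSC, although C8g lost that call under quantile normalization. Against NSC, 2 were higher in Neuron and 3 in Oligodendrocyte. C8g lost its Oligodendrocyte call under both rescalings. With quantile normalization Hc lost its Neuron call and Cfp was called lower in Oligodendrocyte, which left 1 higher and 1 lower in each of Neuron and Oligodendrocyte. Astrocyte had 2 above Neuron, and Oligodendrocyte had 2 below Astrocyte and 1 in each direction against Neuron. Hc followed the order of C3, with means of 0.1467 CPM in NSC, 4.14 in Astrocyte, 0.83 in Neuron and 2.125 in Oligodendrocyte. It was higher in Astrocyte than in Neuron by 1.50 (SE 0.104, adjusted p = 5.09e-08, limma) and higher in Oligodendrocyte than in Neuron by 0.78 (SE 0.116, adjusted p = 5.57e-05). Cfp was lower in Oligodendrocyte than in Neuron by a log2 difference of -0.40 (SE 0.122, adjusted p = 0.0112). It was higher than NSC in Oligodendrocyte with the deposited CPM (0.62) but was called lower with quantile normalization, the one pathway gene whose call changed sign under a rescaling.

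Of 11 complement regulators 6 were tested, and all 6 were called higher than NSC in Astrocyte and in Oligodendrocyte, and 5 in Neuron. In Astrocyte against Neuron 3 were higher and 1 lower, and in Oligodendrocyte 3 were higher than in Neuron, with 2 higher and 1 lower than in Astrocyte. With median-of-ratios scaling and quantile normalization, Astrocyte against Neuron had 1 higher and 1 lower, Cr1l and Vtn being lost. Quantile normalization gave 2 higher and 1 lower in Oligodendrocyte against Neuron. Against NSC, Cr1l lost its call in Astrocyte under both rescalings, and Cd46 in Astrocyte and Oligodendrocyte with quantile normalization. Clu (clusterin, which blocks the terminal complex) had 6.33 CPM in NSC, 1145 in Astrocyte, 218 in Neuron and 413.3 in Oligodendrocyte, the order of C3 again. It was higher in Astrocyte than in Neuron by 2.40 (SE 0.103, adjusted p = 6.74e-10, limma). Csmd1 differed from NSC by 3.75 to 3.87 in the 3 day 4 groups. Susd4 was the exception among them, higher in Neuron (30.31 CPM) than in Astrocyte (14.42 CPM, log2 difference -1.02, SE 0.078, adjusted p = 1.14e-07). Vtn (vitronectin) was higher in Oligodendrocyte than in Neuron by 1.04 (SE 0.116, adjusted p = 3.96e-06).

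**Figure D4:**
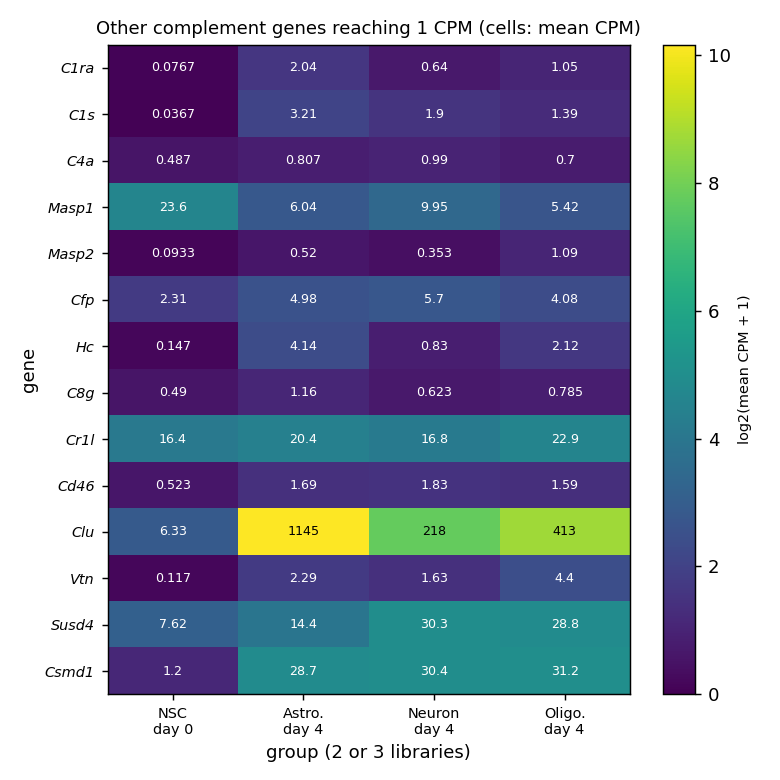
Mean CPM (printed in each cell) of the 14 listed complement genes that reached 1 CPM in any library, by group, coloured by log2(mean CPM + 1). Clu spans 6.33 to 1145 CPM, and Hc follows the same order of groups as C3.

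Of 8 complement receptors (C3ar1, C5ar1, Gpr77, Cr2, Itgam, Itgax, Itgb2 and Vsig4) none reached 1 CPM in any library, and their sum lay between 0.20 and 0.73 CPM. The chemokine receptors of members were at 0 or near it too. Cxcr3, which binds Cxcl10, was listed at 0 throughout, and Ccr2, which binds Ccl2, did not exceed 0.03 CPM. Slc22a17, a receptor for lipocalin 2, was well detected, with 148.9 CPM in NSC, 242.7 in Astrocyte, 230.8 in Neuron and 266.0 in Oligodendrocyte, and was called higher than NSC in all 3 day 4 groups. Of 8 receptors and ligands of members 4 were tested. Hmmr, another hyaluronan receptor that is also a mitosis gene, was at 146 CPM in NSC and at 3.043, 2.273 and 3.105 CPM in Astrocyte, Neuron and Oligodendrocyte. Spp1 (osteopontin, a ligand of Cd44) was lower than NSC in all 3 (-2.56, -3.47 and -3.07, adjusted p from 4.91e-13 to 9.24e-12, limma). Has2, a hyaluronan synthase, was higher in Neuron (2.887 CPM) than in Astrocyte (0.62 CPM, log2 difference -1.25, SE 0.106, adjusted p = 3.24e-07). Among 12 other chemokines 2 were tested: Cx3cl1 was lower than NSC in all day 4 groups (-1.32 in Astrocyte, -0.87 in Neuron, -0.77 in Oligodendrocyte), and Cxcl5 was higher in Astrocyte (1.30 CPM) than in Neuron (0.4767 CPM).

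The members were left out of the list of general (pan-reactive) markers of reactive astrocytes. Its tested genes were higher in the astrocyte medium than in the other day 4 media. Of the reactive members, Serpina3n and Cd44 were too, but the rest were not. Cxcl10 had the same mean in Astrocyte and Oligodendrocyte (0.87 CPM), Lcn2 was highest in Oligodendrocyte (1.005 CPM), and Ccl2 was not called between day 4 groups. Of 9 listed, 7 were tested (Gfap, Vim, S1pr3, Osmr, Cp, Timp1 and Steap4), and 7 of 7 were called higher in Astrocyte than in Neuron, and 7 of 7 lower in Oligodendrocyte than in Astrocyte, under the deposited CPM and both rescalings. Of all genes, 40.3% and 23.5% were called in those directions. The median log2 differences of these 7 were 1.40 and -1.11, against 0.10 and 0.04 over all genes. Steap4 passed the filter only through Astrocyte and Oligodendrocyte, so the filter favoured its call against Neuron (0.26 to 0.34 CPM there). Timp1 did not exceed 0.57 CPM in Neuron. Gfap, the astrocyte filament protein, had 2.217 CPM in NSC, 7631 in Astrocyte, 2647 in Neuron and 284.4 in Oligodendrocyte. Its log2 difference of Oligodendrocyte from Neuron was -3.21 (SE 0.111, adjusted p = 8.92e-11, limma), the direction of C4b and Serpina3n and not of C3. Osmr, the oncostatin M receptor, did likewise (-1.03, SE 0.081, adjusted p = 1.5e-07). Against NSC, 6 were higher and 1 lower in Astrocyte, and 5 higher and 2 lower in Neuron and in Oligodendrocyte. In Oligodendrocyte against Neuron 4 of the 7 were called higher and 3 lower, and with either rescaling 2 were higher and 3 lower, since S1pr3 and Timp1 were no longer called. S1pr3 and Steap4 were higher in Astrocyte than in Neuron by 1.93 and 1.55.

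Lists known from astrocytes after lipopolysaccharide (A1) and after ischaemia (A2) split by gene. Of 11 A1 genes 9 were tested: 4 were called higher and 4 lower in Astrocyte against Neuron, and 2 higher and 5 lower in Oligodendrocyte against Astrocyte, with medians of -0.05 and -0.53. Against NSC, 7 were higher and 1 lower in Astrocyte, 8 and 1 in Neuron, and 5 and 1 in Oligodendrocyte, and Oligodendrocyte against Neuron called 2 higher and 4 lower. Quantile normalization gave 5 higher and 2 lower in Astrocyte, 5 and 1 in Neuron, and 4 and 3 in Oligodendrocyte against NSC. Gbp2, an interferon-induced GTPase, was higher than NSC by 4.22 in Astrocyte, 3.31 in Neuron and 2.74 in Oligodendrocyte. Srgn (serglycin) was higher in Astrocyte than in Neuron by 1.61, whereas Fbln5 (fibulin 5) was lower there (-1.06) and highest in Oligodendrocyte at 11.08 CPM. Ggta1 was lower in Oligodendrocyte than in Neuron by a log2 difference of -1.35. Of 12 A2 genes 11 were tested, and 6 were called higher and 3 lower in Astrocyte against Neuron, 1 higher and 8 lower in Oligodendrocyte against Astrocyte, and 5 in each direction in Oligodendrocyte against Neuron. Against NSC, 8 were higher and 2 lower in Astrocyte, 7 and 3 in Neuron, and 7 and 2 in Oligodendrocyte. With quantile normalization these were 5 and 3 (Ptx3, Ptgs2 and Cd14 being lost), 6 and 4, and 6 and 4. Tgm1 (transglutaminase 1) had 10.43 CPM in Astrocyte against 1.19 in Neuron and 0.49 in Oligodendrocyte, and Tm4sf1 23.09, 3.293 and 7.57. Ptgs2 (cyclooxygenase 2) was highest in Neuron at 7.603 CPM and B3gnt5 in Oligodendrocyte at 78.81 CPM.

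**Figure D5:**
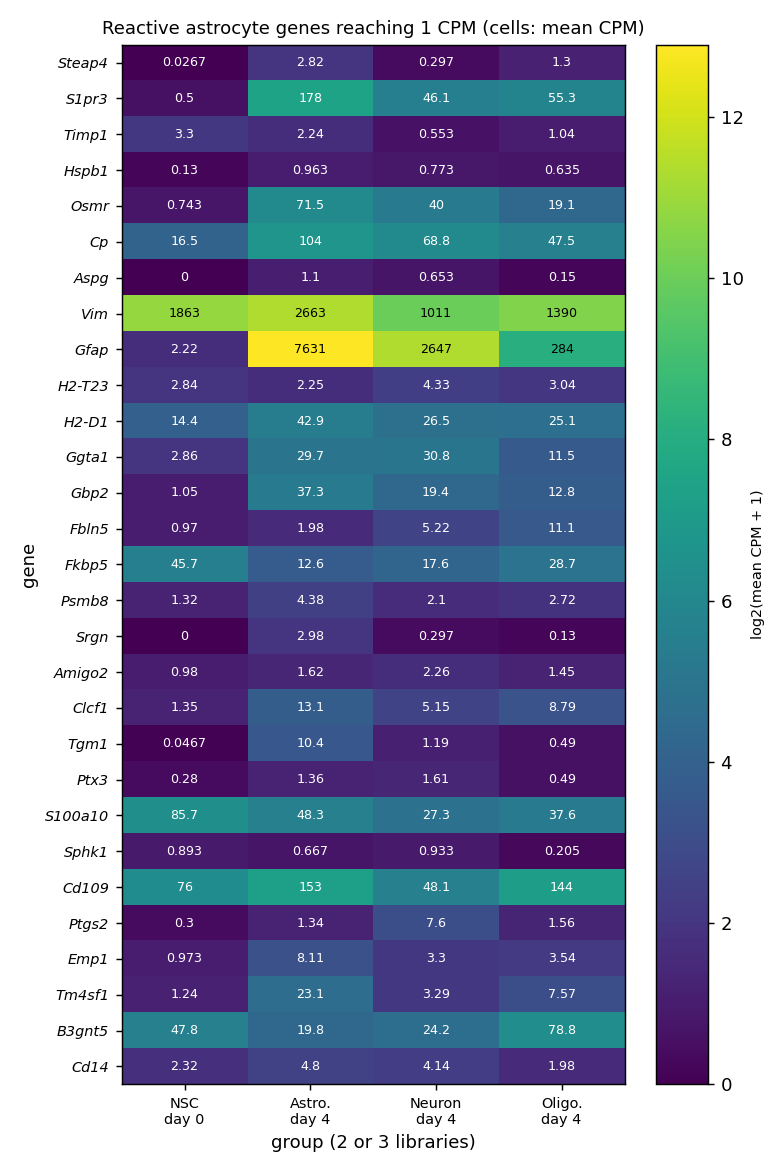
Mean CPM (printed in each cell) of the listed pan-reactive, A1 and A2 genes that reached 1 CPM in any library, by group, coloured by log2(mean CPM + 1), in that order from top to bottom. Gfap spans 2.217 to 7631 CPM, and the A1 and A2 genes have no common highest group.

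C3, Lcn2 and the chemokines are textbook targets of NF-kB, and Serpina3n and Osmr of IL-6-type cytokines acting through STAT3, so genes of both pathways were counted. Of 11 NF-kB feedback and target genes 9 were tested, and 3 were called higher and 1 lower in Astrocyte against Neuron, with a median of 0.06 against 0.10 over all genes. Traf1 had 0.01333 CPM in NSC, 7.513 in Astrocyte, 1.06 in Neuron and 1.50 in Oligodendrocyte. Its means had the order of C3, but Oligodendrocyte and Neuron were not called different. Bcl3 was higher in Astrocyte (1.863 CPM) than in Neuron (0.1033 CPM) by 1.37 (SE 0.097, adjusted p = 5.95e-08, limma). The adhesion molecule Vcam1 had 84.63 CPM in Astrocyte and 95.34 in Neuron but 23.54 in Oligodendrocyte, which is -1.97 against Neuron (SE 0.123, adjusted p = 1.64e-08). Oligodendrocyte against Astrocyte called 0 higher and 6 lower of the 9, and Oligodendrocyte against Neuron 1 higher and 5 lower. Against NSC, 7 were higher in Astrocyte, 5 higher and 1 lower in Neuron, and 2 higher and 1 lower in Oligodendrocyte. With median-of-ratios scaling the counts were 5 higher and 0 lower in Astrocyte, 5 and 1 in Neuron, and 1 and 2 in Oligodendrocyte. Quantile normalization gave 4 and 1, 3 and 3, and 1 and 4, so the balance against NSC depends on the scaling.

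Of 14 genes of the IL-6 family and STAT3 12 were tested, and 8 were called higher and 2 lower in Astrocyte against Neuron, with a median of 0.60. Il6 itself did not exceed 0.10 CPM in any library. The shared receptor chain Il6st stood at 421.4 CPM in Astrocyte, 239.4 in Neuron and 59.42 in NSC. Cebpb, a transcription factor of the acute-phase response, was higher in Astrocyte (17.64 CPM) than in Neuron (7.397 CPM) by 1.14 (SE 0.168, adjusted p = 5.52e-05, limma). Socs3, the feedback inhibitor of STAT3, was lower in Oligodendrocyte (5.35 CPM) than in Astrocyte (18.23 CPM), with a log2 difference of -1.61 (SE 0.126, adjusted p = 2.62e-07). In Oligodendrocyte against Astrocyte 2 genes of the 12 were higher and 9 lower, and against Neuron 4 were higher and 4 lower (2 and 6 with either rescaling). Against NSC, 9 were higher and 2 lower in Astrocyte, 8 and 1 in Neuron, and 8 and 2 in Oligodendrocyte, where quantile normalization gave 5 and 2. Osmr and Clcf1 stand on this list and on a reactive list, so these counts are not independent.

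Genes whose pattern over the 11 libraries was most like that of a member were sought among the 10296 tested genes that reached 10 CPM in 2 or more libraries. The 11 points fall into 4 groups that share their cultures and depth, so Pearson's r on log2(CPM + 1) is a description. C3 was matched most closely by Dusp14 (r = 0.9941), Rd3 (0.9939), Wdr78 (0.9929) and Pvalb (0.9929). Pvalb, the calcium-binding protein parvalbumin, had 0.2467 CPM in NSC, 18.15 in Astrocyte, 1.347 in Neuron and 5.18 in Oligodendrocyte. Cd59a was matched by Rsph4a (0.9966) and again by Rd3 (0.9965). The nearest genes were Tmem100 (0.997) and Plscr4 (0.9965) to C4b, Lingo1 (0.9967) and Adora1 (0.9951) to Serping1, and Itpkb (0.993) and Lect1 (0.9917) to Serpina3n. Ccl2 was nearest to Ect2 (0.996), a gene of cell division, and F630043A04Rik (0.9958), Cxcl10 to Dap3 (0.9673) and Ercc3 (0.9648), and Cd44 to Ddx41 (0.9884) and Rhoj (0.9859). Among the members themselves r was 0.99 for C3 with Cd59a and 0.96 for C3 with Serping1, but 0.47 for C3 with C4b.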

How the data were processed

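The authors deposited CPM values to 2 decimals (37991 genes by 11 libraries) with mm9 gene coordinates, per the file headers. Bcl2fastq 1.8.4, TopHat2 2.0.8, HTSeq 0.6.1, edgeR 3.2.4, R 3.0.0, HOMER and the build NCBIM37 are named, without roles, per the submitters' processing notes. The libraries were made with a stranded kit per the labels' protocols. Use of the strand in counting, the annotation release and read filters were not given in the sources used here, so a gene and an antisense partner may share reads. The listed genes held 74.95% to 80.25% of the CPM total. The rounding is large beside 1 read, so no count test was used.

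CPM were analysed as log2(CPM + 1) with limma 3.58.1 in R 4.3.3: 1 mean per group over all 11 libraries, eBayes with trend (7 residual and 5.96 prior degrees of freedom), two-sided, Benjamini-Hochberg adjustment within each comparison. Every adjusted p comes from limma. The test was checked on simulated data in which few genes differed, and only in Astrocyte. That check cannot speak to the scaling of data in which most tested genes differ. The members and gene lists were chosen with earlier results of these data known. Every member is given in every library. From each pathway list the rule named, per comparison, the 2 largest called differences without overlap, and for likeness the 4 genes most correlated with C3 and 2 with each other tested member. Names outside it (such as Ccl7, Il6 and genes at or near 0) were chosen after their values were seen. Levels per kilobase use exon unions of GENCODE vM21. Alternatives were 2 scalings, 2 filters, 2 pseudocounts, no trend, only the groups compared, a replicate block and each library left out.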

Additional observations from a re-analysis of the deposited data

How the results depend on the processing

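Of 930 member values recomputed under 20 alternatives, 913 kept their direction and their side of the threshold, and no call was lost. For C3 with Astrocyte, where no test is given, a shift smaller than the spread within groups took the place of the threshold. With a filter of 5 CPM fewer members could be tested, and 3 were called in Astrocyte against NSC in place of 5, and 5 in Neuron against NSC in place of 8. Cxcl10 did not pass the filter, and was not tested, without NSC replicate 2 or without NSC replicate 3. Calls gained were Cxcl10 and Cd44 against NSC under rescaling (Cd44 in Astrocyte at -0.16, adjusted p = 0.0365 by limma, with quantile normalization) and Serping1 without Neuron replicate 2, as given with those genes. Values near 0 changed sign. Ccl2 in Oligodendrocyte against Neuron became -0.02 with quantile normalization and ranged from 0.00 to 0.04 with 1 library left out. Cxcl10 in Oligodendrocyte against Astrocyte became 0.03 with quantile normalization and 0.05 with the replicate block, and ranged from -0.06 to 0.06 with 1 library left out. The log2 difference of C3 in Astrocyte from NSC, on few NSC reads, was 8.98 with a pseudocount of 0.1 and 3.99 with 5.

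Quantile normalization moved 7 called differences by more than 1.5 times, all still called: Serping1 from 1.51 to 0.89 and Serpina3n from 1.65 to 0.99 in Oligodendrocyte against NSC, Serping1 from 1.25 to 0.82, Cd59a from 0.52 to 0.23 and Cxcl10 from -0.62 to -1.07 in Neuron against NSC, and Cxcl10 from 0.51 to 0.30 in Astrocyte and to 0.32 in Oligodendrocyte against Neuron. The cause was not tested. Of 15 pairs of same-numbered libraries, 6 correlated above 0.1 in their deviations from the group means (range -0.51 to 0.41). The deviations within a group are tied to each other by its mean, so this cannot decide whether the numbers pair the samples. A fit with the replicate block called 5, 8, 7, 6, 6 and 5 members in the 6 contrasts, as without it. At these depths values under about 0.05 CPM rest on 3 reads or fewer.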
